A study of Homo sapiens with 8 samples.

Results

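The chromatin around 43 genes for developmental transcription factors outside the HOX clusters was followed across 4 lists of ATAC-seq peaks from NCI-H295R cells, a human line established from an adrenocortical carcinoma. The 43 genes were chosen by name, from the PAX, TBX, NKX, LHX, IRX, FOX and SOX families, the related genes SIX2, SIX3 and SIX6, a group of other homeobox genes (MSX1, MSX2, EVX1, EVX2, GSC and EMX2) and a group of basic helix-loop-helix (bHLH) genes, out of 19974 protein-coding genes. A peak belonged to one of them when its summit lay inside the gene, or within 100 kb of a gene end with no other protein-coding gene end nearer. By that rule the genes held 158 of 61016 peaks in the vehicle list, 126 of 41086 in the EZH2i list, 141 of 47161 in the CBPi list and 150 of 51095 in the FSK list. ATAC-seq marks open chromatin by where the transposase Tn5 inserts adapters. Vehicle cells had DMSO for 96 h. EZH2i cells had EPZ-6438, an inhibitor of the histone methyltransferase EZH2, at 62 µM for 96 h, and CBPi cells had PRI-724, an inhibitor that acts on the coactivator CBP, at 26 µM for 96 h. FSK cells had vehicle for 48 h and then forskolin, which activates adenylyl cyclase and raises cAMP, at 10 µM for 48 h. The 2 libraries of a group stand behind a single list, so replicate error cannot be given, no test between groups was possible, and each comparison is of lists. All groups are 1 cell line. In such bulk data a site open in fewer cells and a site less open in each cell cannot be told apart.

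Genes of this kind direct the formation of organs and cell types in the embryo and are silent in many adult tissues. In many cells they lie under Polycomb repression, in which EZH2 places methyl groups on histone H3 lysine 27, often over CpG-rich start sites. CBP and its relative p300 acetylate histones at promoters and enhancers, and PRI-724 was made to block the contact of CBP with β-catenin. Histone marks and RNA were not analysed here, so open chromatin at a gene says nothing here of whether the gene was transcribed.

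A vehicle peak is called kept where at least 1 bp of it lay under a peak of the treated list and lost where none did, and a peak of a treated list with no vehicle peak under it is called gained. A start-site peak reached within 1 kb of an annotated start, and all other peaks are called distal. For genes without an annotated start, either gene end stood in for it. An annotated start was held for 15812 of the 19974 protein-coding genes, so some start-site peaks may lie at the far end of a gene. The area is the authors' measure of peak size and is used to rank peaks within a list. Some of the alternative settings given at the end also use a fixed minimum area of 400 across lists. The 3 treated lists were shorter than the vehicle list, and a peak can leave a list by passing just under the caller's threshold. As a check of the cell type, 9 of 15 adrenocortical marker genes (60.0%) had a start-site peak in the vehicle list. The counts were 8 in the EZH2i list (53.3%), 8 in the CBPi list (53.3%) and 10 in the FSK list (66.7%). All protein-coding genes had shares of 68.2%, 66.2%, 68.1% and 66.2% in the same order, so these counts do not identify the cell type. NR5A1, NR0B1, STAR, CYP11A1, CYP17A1, INHA, FDX1 and DLK1 had one in all 4. MC2R had one in the vehicle and FSK lists, and CYP21A2 in the FSK list alone. HSD3B2, CYP11B1, CYP11B2, MRAP and SULT2A1 had none in any list. Of the markers of other cell types, 1 of 6 chromaffin genes (CHGA), 1 of 5 endothelial genes (KDR) and 2 of 5 fibroblast genes (COL1A1 and PDGFRA) had one in every list. Of 5 immune genes, 1 had one in the vehicle list, 2 in the EZH2i list, 3 in the CBPi list and 2 in the FSK list.

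At the start sites, 33 of the 43 genes had a peak in the vehicle list (76.7%, Wilson 95% interval 62.3 to 86.9), 31 with EZH2i, 33 with CBPi and 30 with FSK. Over all protein-coding genes the shares were 68.2%, 66.2%, 68.1% and 66.2%. 28 of the 43 genes had a start-site peak in all 4 lists (65.1%, against 64.1% of all protein-coding genes). 9 had none in any list (20.9%, against 30.0%): PAX3, PAX5, PAX7, PAX8, TBX4, TBX5, TBX15, EVX2 and SOX17. SOX17, an endoderm factor, had no assigned peak of any kind in any list. For 13 of the 43 genes (SIX3, TBX2, TBX3, TBX15, NKX2-5, LHX1, IRX3, IRX5, FOXA2, FOXF1, SOX9, SOX17 and OLIG2) either end of the gene was taken in place of the start. In the vehicle list 11 of these 13 had a start-site peak, against 22 of the 30 genes with an annotated start. Such a start was held for 15812 of all 19974 genes. Scoring at either end leaves more room for a peak, so it can raise the share of the 43 genes against that of all genes. Of the 33 genes with a vehicle start-site peak, 2 had none with EZH2i (SIX3 and NEUROD1), 1 had none with CBPi (IRX1) and 3 had none with FSK (GSC, LHX1 and SIX3). Over all genes with a vehicle start-site peak, 3.89% had none with EZH2i, 1.92% with CBPi and 4.24% with FSK. Of the 10 genes without one in the vehicle list, EVX1 had one with CBPi, and none did with EZH2i or FSK. Over all such genes, 1.98% had one with EZH2i, 3.7% with CBPi and 2.63% with FSK. Counts of 1 to 3 genes are too small to be read against these shares.

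The start sequences of the genes that changed are shown because each holds, or lies next to, the peak that differed between lists. Each is the RefSeq sequence of build GRCh38.p14, read 5′ to 3′ on the gene's strand, from 250 bases before the start to 50 bases after it, with CpG dinucleotides in capitals. They lie at chr5:3595582-3595881 (plus strand) for IRX1, chr2:181680468-181680767 (minus strand) for NEUROD1, chr14:94770064-94770363 (minus strand) for GSC and chr7:27242552-27242851 (plus strand) for EVX1.
IRX1: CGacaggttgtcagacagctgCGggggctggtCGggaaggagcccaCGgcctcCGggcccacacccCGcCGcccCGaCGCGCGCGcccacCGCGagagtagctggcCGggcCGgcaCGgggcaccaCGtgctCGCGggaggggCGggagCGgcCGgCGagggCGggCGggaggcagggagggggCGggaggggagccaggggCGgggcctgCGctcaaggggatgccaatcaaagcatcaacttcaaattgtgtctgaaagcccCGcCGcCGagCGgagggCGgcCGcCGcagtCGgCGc
NEUROD1: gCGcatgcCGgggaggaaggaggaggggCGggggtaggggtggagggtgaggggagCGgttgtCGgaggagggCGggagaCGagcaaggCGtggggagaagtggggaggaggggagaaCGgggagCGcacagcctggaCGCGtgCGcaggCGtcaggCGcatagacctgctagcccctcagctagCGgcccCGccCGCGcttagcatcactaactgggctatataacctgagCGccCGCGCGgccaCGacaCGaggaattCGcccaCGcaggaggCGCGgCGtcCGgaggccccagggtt
GSC: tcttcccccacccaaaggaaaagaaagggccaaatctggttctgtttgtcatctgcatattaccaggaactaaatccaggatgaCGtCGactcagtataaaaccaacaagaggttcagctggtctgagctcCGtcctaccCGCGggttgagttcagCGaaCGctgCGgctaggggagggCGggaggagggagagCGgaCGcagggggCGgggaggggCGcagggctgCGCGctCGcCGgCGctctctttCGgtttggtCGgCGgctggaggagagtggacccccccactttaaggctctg
EVX1: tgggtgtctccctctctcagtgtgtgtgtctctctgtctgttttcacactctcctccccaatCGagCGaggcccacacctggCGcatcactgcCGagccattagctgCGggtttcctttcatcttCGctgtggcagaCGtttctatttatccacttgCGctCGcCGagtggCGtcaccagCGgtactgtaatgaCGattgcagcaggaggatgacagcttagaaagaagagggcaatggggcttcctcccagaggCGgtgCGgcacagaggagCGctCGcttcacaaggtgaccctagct

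IRX1, a patterning factor of the Iroquois family, had the most CpG dinucleotides of any of the genes' start windows, 38 in 300 bases. Its start-site peak lay just upstream of the printed window and covered none of it in any list. That peak was 986 bp wide in the vehicle list, 1128 bp with EZH2i and 512 bp with FSK, and the CBPi list had none. The NEUROD1 window held 31 CpG dinucleotides. The vehicle peak over NEUROD1, which encodes a neuronal and endocrine differentiation factor, was 481 bp wide, and the CBPi and FSK peaks were 396 and 360 bp wide. These peaks covered 300, 300 and 273 bases of the window, and the EZH2i list had no peak there. GSC encodes goosecoid, a homeobox factor of the gastrula organizer, and its window held 21 CpG dinucleotides. Its start-site peak was 700 bp wide in the vehicle list, 617 bp with EZH2i and 634 bp with CBPi, and was absent with FSK. EVX1 lies beside the HOXA cluster, and its window held 17 CpG dinucleotides. A 617 bp peak covered 198 bases of the EVX1 window in the CBPi list alone, and 94.0% of the peaks of that list had a larger area. The EVX1 peak therefore stood near the bottom of its list.

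The size of the peaks that were absent at start sites differed between genes. In the vehicle list, 78.4% of all peaks had a larger area than the SIX3 start-site peak (385 bp wide, area 308.6), 68.4% than the NEUROD1 peak (area 380.9) and 64.6% than the IRX1 peak (area 413.6). These 3 were below the median of the list. The peaks that FSK lacked at GSC (area 984.1) and at LHX1 (area 888.5) were above it, with 32.1% and 35.1% of vehicle peaks larger. LHX1, a factor of the head organizer and kidney, had a 1476 bp peak at its gene end in the vehicle list and a 1371 bp peak with CBPi. With EZH2i the same stretch held separate peaks, the larger one 572 bp wide. Over all vehicle start-site peaks above the median area, 99.2% were kept with FSK, against 31 of 33 at these genes. SIX3, a forebrain and eye factor, had a start-site peak 407 bp wide with CBPi and none with EZH2i or FSK.

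The widest start-site peaks of the group were at IRX5, SIX2, NEUROG2, NKX6-1 and FOXD3. The sequences of SIX2, NEUROG2, NKX6-1 and FOXD3 are shown as the wholly covered counterpart to those above, since a peak covered all 300 bases of each in all 4 lists. They lie at chr2:45009403-45009702 (minus strand), chr4:112516131-112516430 (minus strand), chr4:84499243-84499542 (minus strand) and chr1:63322317-63322616 (plus strand), in the same build and with CpG in capitals.
SIX2: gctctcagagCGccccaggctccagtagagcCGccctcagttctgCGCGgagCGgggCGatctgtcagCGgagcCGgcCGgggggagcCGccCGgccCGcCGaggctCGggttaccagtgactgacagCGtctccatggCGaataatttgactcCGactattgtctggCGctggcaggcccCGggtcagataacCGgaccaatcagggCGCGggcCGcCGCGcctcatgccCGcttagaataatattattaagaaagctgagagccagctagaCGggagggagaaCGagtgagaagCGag
NEUROG2: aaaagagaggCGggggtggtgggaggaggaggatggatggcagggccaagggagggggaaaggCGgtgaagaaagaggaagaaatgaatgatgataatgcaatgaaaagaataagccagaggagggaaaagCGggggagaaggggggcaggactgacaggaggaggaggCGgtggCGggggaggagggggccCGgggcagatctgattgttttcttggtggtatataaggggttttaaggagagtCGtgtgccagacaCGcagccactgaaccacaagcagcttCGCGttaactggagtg
NKX6-1: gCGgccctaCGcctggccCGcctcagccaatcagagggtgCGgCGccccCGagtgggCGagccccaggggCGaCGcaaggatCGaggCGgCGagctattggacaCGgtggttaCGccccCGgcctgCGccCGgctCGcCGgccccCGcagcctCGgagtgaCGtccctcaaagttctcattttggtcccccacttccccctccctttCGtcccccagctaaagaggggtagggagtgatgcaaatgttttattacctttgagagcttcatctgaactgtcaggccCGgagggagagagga
FOXD3: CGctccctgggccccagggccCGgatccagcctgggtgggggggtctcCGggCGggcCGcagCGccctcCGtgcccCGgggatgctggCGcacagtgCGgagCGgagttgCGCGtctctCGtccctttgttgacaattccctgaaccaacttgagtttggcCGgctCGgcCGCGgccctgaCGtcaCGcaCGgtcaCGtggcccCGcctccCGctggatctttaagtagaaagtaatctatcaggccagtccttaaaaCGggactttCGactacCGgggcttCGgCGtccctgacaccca

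IRX5, an Iroquois factor, had a peak of 3344 bp in the vehicle list, 3304 bp with EZH2i, 3354 bp with CBPi and 3381 bp with FSK. Its vehicle peak was exceeded in area by 0.159% of the list. SIX2, a factor of kidney progenitors, had peaks of 2930, 2181, 2553 and 2583 bp in the same order of lists. NEUROG2, a proneural bHLH factor, had peaks of 2768, 2478, 2713 and 2842 bp. These peaks stayed among the largest 2% of each list by area, with between 0.159% and 1.67% of the list larger. NKX6-1, a factor of motor neurons and pancreatic β cells, had peaks of 2524, 2639, 2459 and 2491 bp, and FOXD3, a neural crest factor, of 2391, 2471, 2480 and 2610 bp. Among the genes with a start-site peak, the median width of the largest one was 1472 bp in the vehicle list (385 to 3344), 1205 bp with EZH2i, 1189 bp with CBPi and 1213 bp with FSK. Over all start-site peaks the medians were 1167, 1072, 1198 and 1086 bp. These take every start-site peak and not only the largest of each gene, so the medians of the genes cannot be read against them. Some peaks were narrower in all 3 treated lists than in the vehicle list. The peak at SOX2, a stem cell and neural factor, was 1665 bp wide in the vehicle list and 1061, 937 and 1079 bp in the treated lists. The largest one at HAND2, a heart and limb factor, was 1303 bp wide and then 408, 915 and 637 bp. With EZH2i the HAND2 start site held 2 peaks, 827 bp wide together. The FSK peak did not overlap the larger of them, so these widths are of different stretches. Width rests on where the caller set the border and has no replicate error here.

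**Figure D1:**
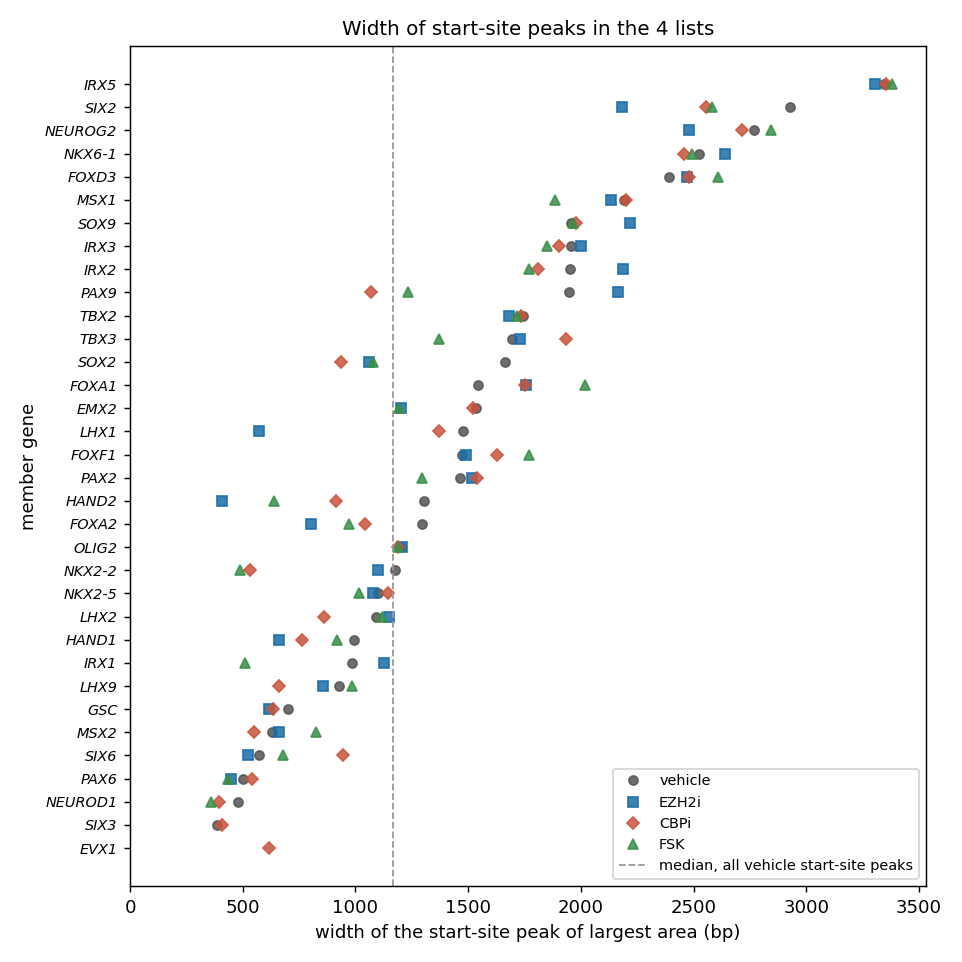
Width in bp (x axis) of the start-site peak of largest area for each gene that had one (y axis), with a symbol per list. The dashed line is the median of all vehicle start-site peaks, 1167 bp. IRX5 lies between 3304 and 3381 bp in all 4 lists, SIX3 and GSC lack symbols where a list had no peak, and EVX1 has a CBPi symbol alone.

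The CpG content of the start windows was compared with how many lists had a peak there. The RefSeq table held 43 windows of 30 of the genes. Their median was 21 CpG dinucleotides per window (5 to 38), the same as the median of 21 over all 22132 windows. In the 17 windows with a peak in all 4 lists the median was 24 (10 to 35), against 28 over all windows of that kind. In the 22 windows with no peak in any list it was 18 (5 to 38), against 5 over all such windows. Among windows with no peak in any list, those of these genes thus had the higher median. PAX6, the eye and pancreas factor, gave 9 of those 22, which lie close to each other. The PAX6 start-site peak had its summit 614 bp from the nearest start and covered none of them. As with widths, this is a description of windows that share genes.

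**Figure D2:**
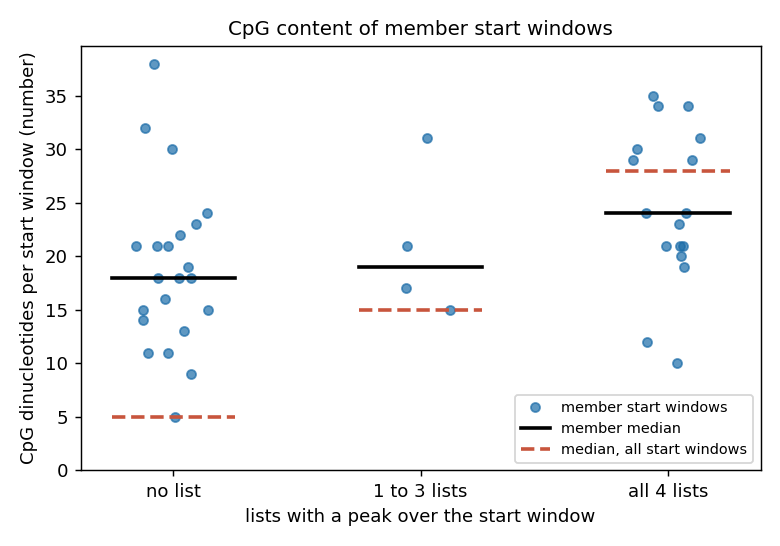
CpG dinucleotides per 300-base start window (y axis) for windows with a peak in no list, in 1 to 3 lists and in all 4 lists (x axis). Points are windows of the developmental factor genes, spread sideways for visibility, black lines their medians (18, 19 and 24) and dashed lines the medians of all windows (5, 15 and 28). The black and dashed lines are farthest apart for windows with no peak.

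Both strands of the windows were searched for 4 short motifs. The cAMP response element TGACGTCA was in 2 of 43 windows (4.65%, against 2.26% of all windows), those of FOXD3 and PAX6, starting 72 and 76 bases before the start. The FOXD3 match can be read in the sequence above. The TCF/LEF motif CTTTGAT was in 3 windows (6.98%, against 1.99%), those of HAND1, IRX1 and SIX6, and in the IRX1 sequence it reads on the opposite strand 22 bases before the start. The AP-1 motif TGANTCA was in 2 windows (4.65%, against 6.15%), those of NKX2-2 and SIX6. The SF1 motif AAGGTCA was in 0 windows, against 3.22% of all windows. No match overlapped a match of another motif. With 0 to 3 windows per motif, these are counts of letters and no comparison between lists.

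Across all their peaks, the developmental factor genes kept most of what the vehicle list held. With EZH2i 117 of 158 vehicle peaks were kept (74.1%, Wilson 95% interval 66.7 to 80.3), against 62.3% of all vehicle peaks. With CBPi 126 were kept (79.8%, 72.8 to 85.3), against 69.4% of all peaks. With FSK 124 were kept (78.5%, 71.4 to 84.2), against 69.8% of all peaks. Intervals cover counting error alone and treat peaks as independent, although peaks of one gene share a locus. Larger peaks were kept more often, so the share expected from 20 bins of vehicle area was set beside each value. It was 64.0% with EZH2i, 71.0% with CBPi and 71.2% with FSK. The peaks of these genes were kept 10.1, 8.78 and 7.27 percentage points more often than that. The kept share of other genes of 7 of their families, given with the HOX genes, lay below the share expected from area with CBPi and 4.45 and 0.829 points above it with EZH2i and FSK. The 3 comparisons share the one vehicle list. Cutting every list to 41086 peaks of largest area moved the kept shares to 90.8% with EZH2i (83.9 to 94.9), 89.0% with CBPi (81.7 to 93.6) and 82.6% with FSK (74.4 to 88.6), against 82.3%, 82.0% and 79.3% of all peaks. The intervals with CBPi and FSK then held the value of all peaks.

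The difference from the background was widest among small distal peaks. At start sites 37 of 39 vehicle peaks were kept with EZH2i, 38 with CBPi and 35 with FSK, against 92.7%, 96.6% and 92.7% of all start-site peaks. The 39 include a peak assigned to SIX6 that lies at the start of its neighbour C14orf39. Of the 119 distal peaks, 80 were kept with EZH2i (67.2%, 58.4 to 75.0), 88 with CBPi (74.0%, 65.4 to 81.0) and 89 with FSK (74.8%, 66.3 to 81.7). The shares over all distal peaks were 53.3%, 61.3% and 62.9%. Among the 52 distal peaks above the median vehicle area, 48, 48 and 49 were kept (92.3%, 92.3% and 94.2%). Of all such peaks 88.0%, 91.2% and 90.8% were kept, values that lay inside the intervals of these genes. Among the 67 below it, 32 were kept with EZH2i (47.8%, 36.3 to 59.5, against 30.7% of all such peaks), 40 with CBPi (59.7%, 47.7 to 70.6, against 41.8%) and 40 with FSK (59.7%, against 44.8%). Few lost peaks were above the median vehicle area: 4 of the 41 lost with EZH2i, 4 of the 32 lost with CBPi and 5 of the 34 lost with FSK. Over all lost peaks this held for 2326 of 22990, 1663 of 18673 and 1803 of 18455. The small size of lost peaks was therefore not particular to these genes.

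**Figure D3:**
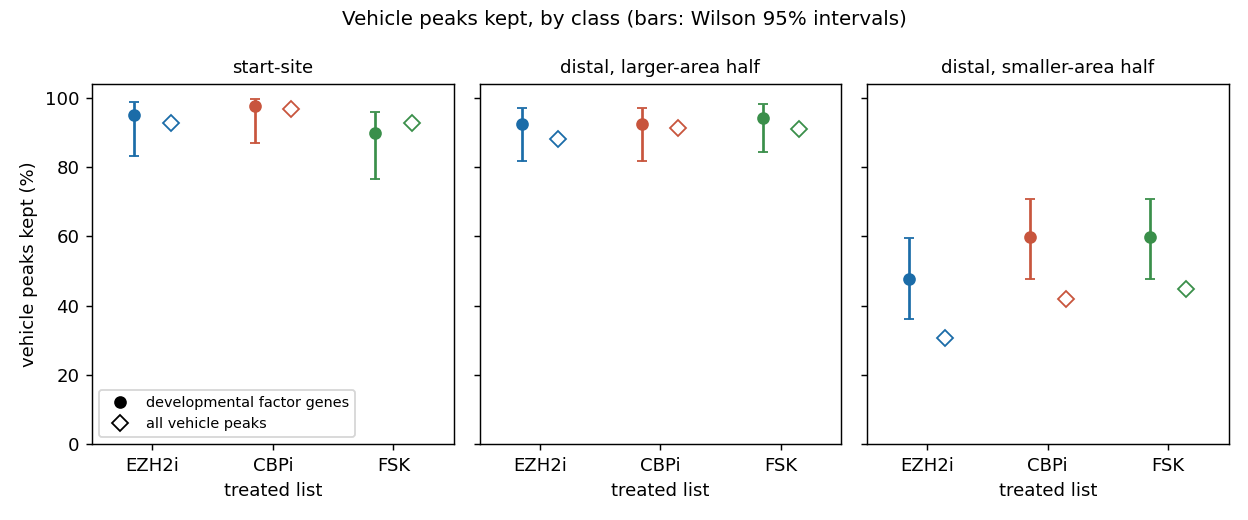
Share of vehicle peaks kept (y axis, percent) in each treated list (x axis), for start-site peaks and for distal peaks above and below the median vehicle area (panels). Filled circles are peaks of the developmental factor genes, open diamonds all vehicle peaks, and bars Wilson 95% intervals (counting error). The circles lie above the diamonds in the right panel, at 47.8%, 59.7% and 59.7% against 30.7%, 41.8% and 44.8%.

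The HOX genes, developmental homeobox genes in 4 clusters, were set beside the group. These 39 genes held 57 vehicle peaks, of which 41 were kept with EZH2i (71.9%, 59.2 to 81.9), 52 with CBPi (91.2%, 81.1 to 96.2) and 45 with FSK (79.0%, 66.7 to 87.5). The shares expected from area were 66.4%, 72.5% and 72.7%. A further 64 genes of the PAX, TBX, NKX, LHX, IRX, FOX and SOX families, a set chosen after seeing the data, held 195 vehicle peaks. Of these, 133 were kept with EZH2i (68.2%, 61.4 to 74.3), 127 with CBPi (65.1%, 58.2 to 71.5) and 140 with FSK (71.8%, 65.1 to 77.6), where area gave 63.8%, 70.6% and 71.0%. These relatives stood 4.45 points above, 5.46 points below and 0.829 points above the share expected from area. Of their 90 distal peaks below the median vehicle area, CBPi kept 27 (30.0%, 21.5 to 40.1), against 45.6% from area. Differences between the sets were not tested.

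Gains were few. With EZH2i 6 of the genes' 126 peaks had no vehicle peak under them (4.76%, 2.2 to 10.0), against 6.98% of all EZH2i peaks. With CBPi 13 of 141 were gained (9.22%, 5.47 to 15.1), against 10.7%. With FSK 20 of 150 were gained (13.3%, 8.8 to 19.7), against 15.9%. In the lists as deposited the shares of these genes lay below the background, with intervals that held it. With lists of equal length they were 18.3%, 22.2% and 18.8%, against 16.7%, 18.0% and 19.8% of all peaks, so which side of the background they lay on depended on the setting. Of the 39 gained peaks, 1 was at a start site (EVX1 with CBPi), and 2 were above the median area of their list, both with FSK, at IRX1 and IRX2. Over all peaks, 235 of 2867 EZH2i gains, 449 of 5067 CBPi gains and 330 of 8100 FSK gains were at a start site. Of all gains, 214, 243 and 941 were above the median area of their list. No gained peak of these genes was found in all 3 treated lists. Over all gains the shares found in all 3 were 25.1% with EZH2i, 14.9% with CBPi and 9.74% with FSK. The difference was not tested.

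**Figure D4:**
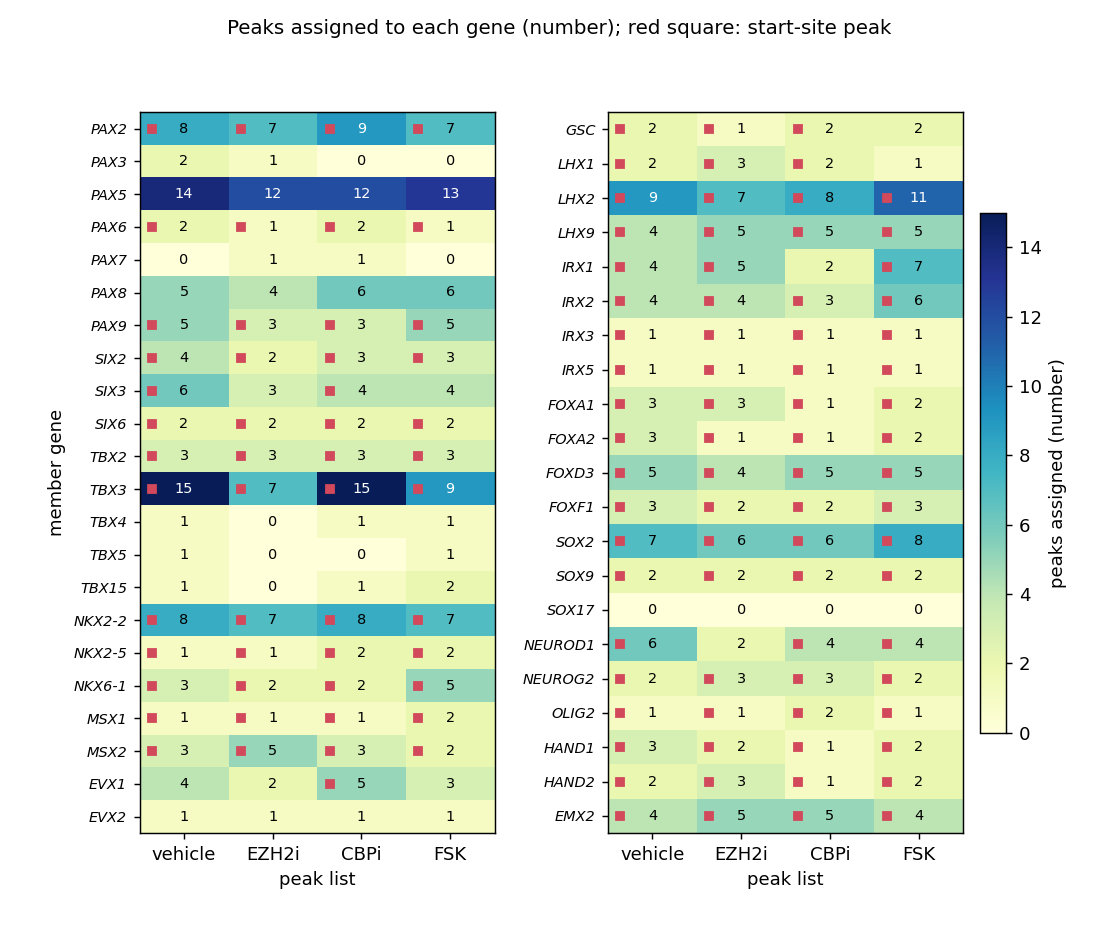
Number of assigned peaks (cell value and colour) for each of the 43 genes (rows) in the 4 lists (columns). A red square marks a gene with a start-site peak in that list. TBX3 runs from 15 to 7, 15 and 9 peaks, IRX1 from 4 to 5, 2 and 7, and SOX17 is at 0 throughout.

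Among the PAX genes, which encode paired-box factors, 36 vehicle peaks became 29 with EZH2i, 33 with CBPi and 32 with FSK. 3 of the 7 genes (PAX2, PAX6 and PAX9) had a start-site peak in each list. PAX5, the B-cell commitment factor, had no start-site peak and yet held 14, 12, 12 and 13 peaks in the vehicle, EZH2i, CBPi and FSK lists. The widest of them, chr9:37026026-37028269 in the vehicle list, lay inside the gene 6444 bp from the start and was 2244 bp wide. It was 2242, 2177 and 2073 bp wide in the treated lists, and between 1.12% and 1.67% of each list was larger in area. PAX5 lost 3 vehicle peaks in each comparison and gained 1, 1 and 2. PAX8, a thyroid and kidney factor, also had distal peaks only, 5, 4, 6 and 6 of them. A gained peak inside PAX8 was found with both CBPi and FSK, and a further one with CBPi.

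PAX2, a factor of the kidney and genital tract, had 8, 7, 9 and 7 peaks, with 1, 0 and 2 lost and 1 gained with CBPi. PAX9, of the pharyngeal pouches and teeth, had 5, 3, 3 and 5 peaks and lost 3 with CBPi, against 1.35 expected from area. It gained 1 with FSK. PAX3, a neural crest and muscle factor, had 2, 1, 0 and 0 peaks, both vehicle ones below the median area. Its relative PAX7 had no vehicle peak and no FSK peak, and 1 peak inside the gene in both the EZH2i and CBPi lists, 822 and 760 bp wide. PAX6 had 2, 1, 2 and 1 peaks, of which 1 was gained with CBPi.

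SIX2, SIX3 and SIX6, related homeobox genes of eye, forebrain and kidney, together held 12, 7, 9 and 9 peaks. SIX3 had 6, 3, 4 and 4, with 3, 2 and 2 lost against 3.03, 2.43 and 2.41 expected from area. SIX2 had 4, 2, 3 and 3, of which 1 was gained with FSK. SIX6 kept both of its peaks in every list.

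Among the T-box genes, TBX3 held the most peaks of any of the 43 genes in the vehicle list. TBX3 encodes a repressor of limb, heart and mammary development and lies at chr12:114670255-114684175. It had 15 peaks in the vehicle list, 7 with EZH2i, 15 with CBPi and 9 with FSK. It lost 7 with EZH2i, 0 with CBPi and 7 with FSK, where area alone gave 8.0, 6.57 and 6.44. The losses with EZH2i and FSK were thus close to the number expected for peaks of that size, while the CBPi list kept all 15 vehicle peaks. TBX3 also gained 1 peak with CBPi and 1 with FSK, so the 15 CBPi peaks are not the same 15. The peaks reaching within 1 kb of either end of TBX3, 1169 and 1694 bp wide in the vehicle list, were kept in all lists. All TBX3 peaks lost in any list were below the median vehicle area. TBX2, a close relative, kept 3 of 3 peaks in every list. TBX4 and TBX5, the hindlimb and forelimb factors, and TBX15 had 1 vehicle peak each, all distal and small, and EZH2i and CBPi lacked all 3. A gained peak at TBX4 and another at TBX15 were found with both CBPi and FSK.

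**Figure D5:**
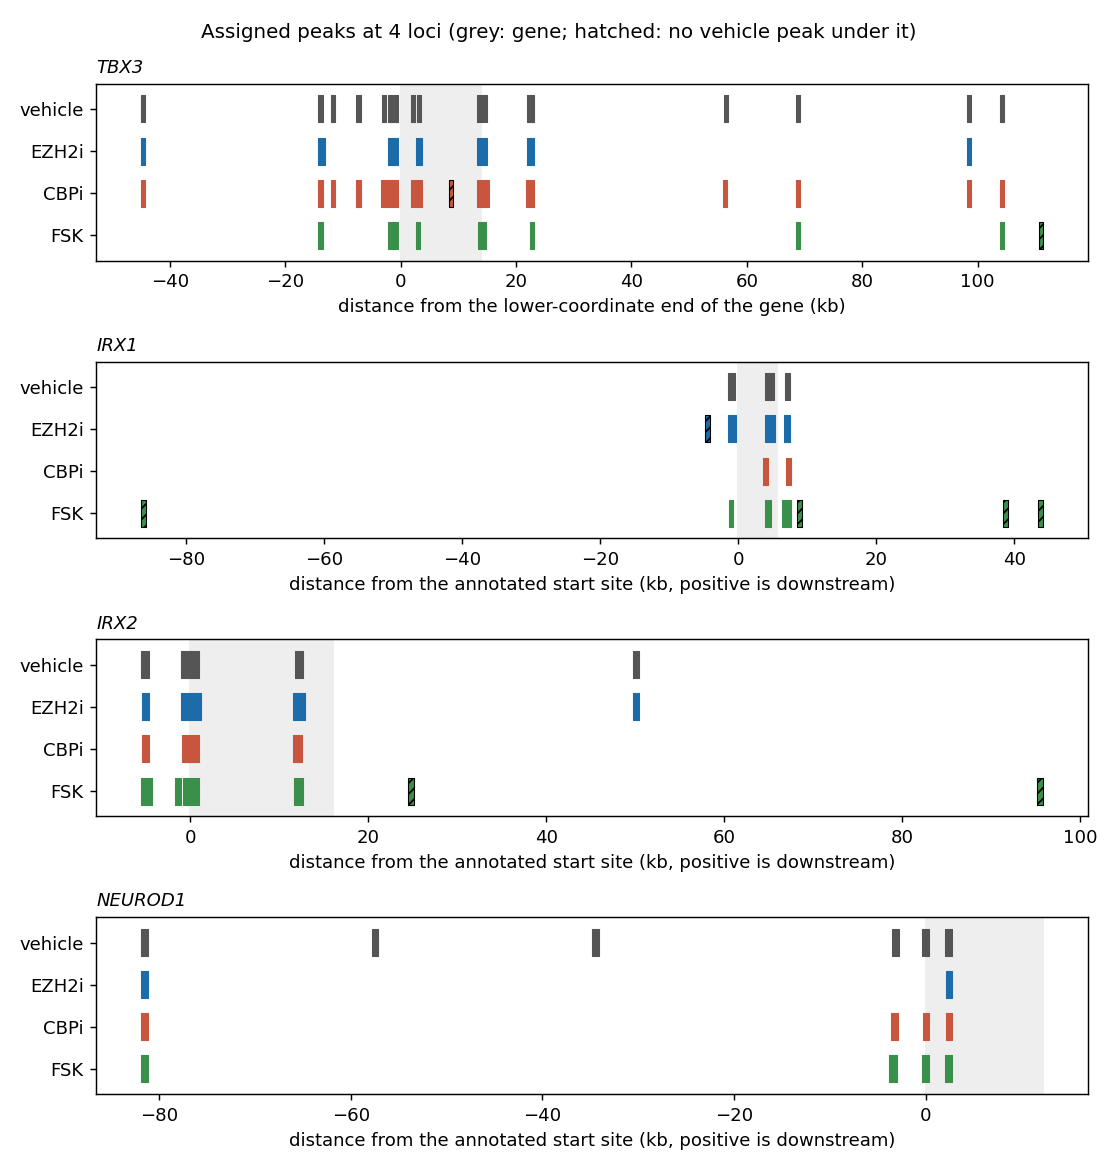
Assigned peaks (bars) in the 4 lists (rows of each panel) at TBX3, IRX1, IRX2 and NEUROD1, by distance in kb (x axis). Distance is from the lower-coordinate end of the gene for TBX3 and from the annotated start for the others, narrow peaks are drawn at a minimum width to be visible, and hatched bars are gained peaks. TBX3 has 15, 7, 15 and 9 bars, and the FSK row of IRX1 holds 4 hatched bars.

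The 4 IRX genes, encode homeobox factors that pattern the neural tube, heart and limbs. They held 10 vehicle peaks, 11 with EZH2i, 7 with CBPi and 15 with FSK. EZH2i kept 10 of 10 (72.3 to 100.0%), CBPi 7 and FSK 9, where area gave 68.8%, 74.6% and 74.6%. Gains were 1 with EZH2i, 0 with CBPi and 6 of 15 with FSK (40.0%, 19.8 to 64.3, against 15.9% of all FSK peaks). With 15 peaks the interval is wide, and the family was picked out after its values were seen. All 6 FSK gains were at IRX1 and IRX2, both on chromosome 5. IRX1 had 4, 5, 2 and 7 peaks. Its 4 FSK gains included chr5:3604398-3604998, 601 bp wide, with 44.7% of the FSK list larger in area. The other 3 lay 86336, 38401 and 43619 bp from the start, all below the median of the list. IRX2 had 4, 4, 3 and 6 peaks, and its largest FSK gain was chr5:2655996-2656585, 590 bp wide, with 41.7% of the list larger. CBPi lacked 2 of the 4 vehicle peaks of IRX1, the start-site one included, and 1 of IRX2. IRX3 and IRX5, on chromosome 16, had 1 start-site peak each in every list.

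The NKX genes held 12, 10, 12 and 14 peaks, and NKX2-2, NKX2-5 and NKX6-1 each had a start-site peak in every list. NKX2-2, a factor of the ventral neural tube and pancreas, had 8, 7, 8 and 7 peaks with 1, 0 and 1 lost. It gained 1 with EZH2i and 1 with CBPi. NKX2-5, the heart factor, kept its only vehicle peak, and a gained peak was found with both CBPi and FSK, 30050 and 30051 bp away. NKX6-1 had 3, 2, 2 and 5 peaks, of which 2 were gained with FSK. The LHX genes, LIM-homeobox factors, held 15, 15, 15 and 17 peaks and lost 2, 1 and 1. LHX2, of forebrain and eye, had 9, 7, 8 and 11 peaks, of which 1 was gained with FSK, and LHX9, a gonad and limb factor, kept 4 of 4 in every list. LHX1 had 2, 3, 2 and 1.

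The other homeobox genes held 15, 15, 17 and 14 peaks and lost 3 with EZH2i, 0 with CBPi and 3 with FSK. MSX2, a craniofacial factor, had 3, 5, 3 and 2 peaks, and its 2 EZH2i gains stood at the bottom of that list, with 98.4% and 99.8% of peaks larger. MSX1 and EMX2 kept every vehicle peak. EVX1 had 4, 2, 5 and 3 peaks. EVX2, beside the HOXD cluster, had 1 peak in each list, inside the gene 3877 bp from its start in the vehicle list. GSC had 2, 1, 2 and 2 peaks, 1 of them gained with FSK.

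The FOX genes, forkhead factors, held 14, 10, 9 and 12 peaks, and all 4 had a start-site peak in every list. FOXA1 and FOXA2, pioneer factors of endoderm, had 3 vehicle peaks each, and CBPi kept only the start-site peak of both. FOXD3 had 5, 4, 5 and 5 peaks, and FOXF1, a mesenchyme factor, 3, 2, 2 and 3. No FOX peak was gained in any list. The SOX genes held 9, 8, 8 and 10 peaks, none of them gained. FSK kept 9 of 9 (70.1 to 100.0%, 78.4% expected from area). SOX2 had 7, 6, 6 and 8 peaks, with 2, 2 and 0 lost, and SOX9, the cartilage and testis factor, kept 2 of 2.

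The bHLH genes held 14, 11, 11 and 11 peaks. NEUROD1 had 6, 2, 4 and 4, and lost 4 with EZH2i, 2 with CBPi and 2 with FSK, where area gave 3.18, 2.65 and 2.67. NEUROG2 kept both vehicle peaks in every list, and OLIG2, an oligodendrocyte and motor neuron factor, kept its 1 peak and gained 1 with CBPi. HAND1, a heart and trophoblast factor, had 3, 2, 1 and 2 peaks, and HAND2 had 2, 3, 1 and 2, of which 1 was gained with FSK.

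Seen by list membership, 96 of the 158 vehicle peaks were present in all 4 lists (60.8%, against 52.6% of all vehicle peaks). 10 were present in the vehicle list alone (6.33%, against 17.9%). Because the 3 comparisons share the vehicle list, a peak absent from all treated lists is not a loss seen 3 times. The 8 largest of the 10 by area lay at chr9:36834014-36834453 inside PAX5 (area 593.8), chr5:154469991-154470516 near HAND1 (564.3), chr2:181715111-181715359 near NEUROD1 (329.6), chr11:31747580-31747875 near PAX6 (320.6), chr2:222305895-222306367 near PAX3 (314.9), chr20:22529640-22529999 near FOXA2 (279.9), chr2:44949866-44950179 near SIX3 (264.2) and chr2:181738143-181738352 near NEUROD1 (233.7). All 10 were distal, and the PAX5 peak alone was above the median vehicle area of 581.4. 12 genes kept every vehicle peak in all 3 treated lists: SIX6, TBX2, NKX2-5, MSX1, EVX2, LHX9, IRX3, IRX5, SOX9, NEUROG2, OLIG2 and EMX2. Of these, NKX2-5, MSX1, EVX2, IRX3, IRX5 and OLIG2 had 1 vehicle peak each. Area gave at most 0.000656 lost peaks for each of them in any list, so their retention was nearly fixed by peak size. The share of all genes that kept every peak was not computed.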

How the data were processed

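ATAC-seq libraries (8, 2 per group) were deposited by the authors as 4 peak lists, 1 per group, on hg38. The submitters' processing notes name Bowtie2, Genrich and deepTools 2.0. Their roles and settings, any Tn5 shift and the way libraries were combined were not given in the sources used here, and read depth is unknown. Each deposited peak has a signal (area of significance, at least 200 in every list), a score and the −log10 of its summit p-value. In the authors' lists the score was within 1 of 1000 times area over width, to at most 1000. Genes and start windows came from RefSeq (GRCh38.p14). The table of start windows held 30 of the 43 genes. Overlap, assignment and Wilson 95% intervals were computed with Python 3.11.15, pandas 2.3.3 and scipy 1.17.1 and tested on simulated lists. No p-value was computed, since each group is 1 list. The genes and lists were chosen with earlier results of these data known. All 43 genes were described by family. The rule for values in every list took genes whose start-site peak was in some lists only, that had at least 5 vehicle peaks or a gained peak, or whose start-site peak was among the 3 widest, and other genes named are given for completeness. Up to 8 lost peaks and 8 start sequences were given. 12 alternative settings were tried, 3 of them chosen after seeing the data. The planned comparison with other genes of the families is reported for 7 families, a set chosen after seeing the data, and not for the remaining one.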

Additional observations from a re-analysis of the deposited data

How the results depend on the processing

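Each group is 1 list pooled by the authors, so leaving out a library was not possible and depth limits cannot be stated. No paired analysis was possible because the lists carry no replicate numbers. Of 133 recomputed values, 108 moved by less than their interval (or, for counts, 1.5 times). With lists of equal length, the kept share was 90.83% with EZH2i and 88.99% with CBPi, the distal kept share 86.3% and 84.93%, and the gained share 18.25% and 22.22% (16.7% and 18.0% of all peaks). With areas of at least 400 in all lists, FSK kept 71.43% of peaks (62.15 to 79.19, against 69.4% of all peaks) and 64.29% of distal peaks, and 105, 82, 93 and 87 peaks were assigned (vehicle, EZH2i, CBPi, FSK). With a −log10 summit p of at least 4, 103, 75, 90 and 90 were, and the gained shares were 6.667%, 13.33% and 16.67%, against 3.26%, 10.0% and 13.5% of all peaks. When only peaks of area at least 400 were counted, against the whole other list (chosen after seeing the data), EZH2i kept 90.48% (distal 85.71%, gained 1.22%), CBPi 91.43% (distal 88.57%, gained 0%) and FSK 91.43% (distal 90%, gained 5.747%). Over all peaks the kept shares under that setting were 83.0%, 87.3% and 87.3%. The kept share of the developmental factor genes was the higher one under each of these settings. The intervals with CBPi and FSK nevertheless held the value of all peaks under each of them. The EZH2i interval held it only with a −log10 summit p of at least 4. Under that setting the kept shares were 66.99%, 75.73% and 71.84%, against 61.5%, 70.8% and 67.8% of all peaks. The gained share changed sides.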
